A study of Mus musculus with 8 samples.

Results

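The replication-dependent histone genes encode the linker histone H1 and the core histones H2A, H2B, H3 and H4. They were found by mapping the RefSeq transcript names of the authors' deposited table to gene symbols and keeping every row whose current or older symbol belongs to the histone clusters (Hist1h to Hist4h in older naming). This gave 60 of 15978 rows: 5 for H1, 15 for H2A, 16 for H2B, 11 for H3 and 13 for H4. The reference lists 71 genes that meet the rule. Of the other 11, 3 are copies (H2ac18, H2ac24 and the gene listed as H4bc24) that lie at a second place written into the name of a member's row, and 8 were not analysed here, among them the testis histone genes H1f6, H2ac1 and H2bc1, 4 pseudogenes and H3c15. The name of the H3c14 row also holds a second place, and whether its value covers H3c15 was not settled. By chromosome, 49 rows lie on chromosome 13, 8 on chromosome 3, 2 on chromosome 11 and 1 on chromosome 6 (mm10).

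RNA came from the brains of 8 male mice of SJL/Bl6 background. Of these, 5 were C9-BAC mice, in which a bacterial artificial chromosome (BAC) expresses human C9ORF72 with 500 G4C2 repeats, and 3 were wild type. Expanded G4C2 repeats in C9ORF72 cause familial amyotrophic lateral sclerosis and frontotemporal dementia, and the study compared the brain transcriptomes of both genotypes. Age, brain region, BAC copy number and batch are not stated in the labels, nor is whether the C9-BAC mice stem from 1 founder. Libraries were strand-specific and made from total RNA with no poly(A) selection, so RNAs without a poly(A) tail could enter them. All 10 marker genes listed for neurons and glia were present, with mean normalised counts of 1072 to 45839 in the authors' deposited table.

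The deposited file is the authors' DESeq2 comparison and gives 1 value per gene: a mean normalised count over all 8 mice, a log2 fold change with its standard error, and a p-value. Values for single mice, the depth of each library and the spread between mice were therefore not used here, and levels below are means of both genotypes together. In brain tissue fewer cells of a type and less RNA per cell cannot be told apart. The file headers do not state which genotype is the numerator, so signs are given as deposited. Standard errors were smallest for rows with few counts, as happens when a prior pulls fold changes toward 0, so the deposited fold changes may understate differences, and they do not bound how large a difference could be.

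Replication-dependent histone genes are transcribed mainly in S phase, when new DNA must be packed into nucleosomes. Most have no introns, and their RNA ends not in a poly(A) tail but just after a short hairpin, the histone stem-loop. The stem-loop binding protein SLBP and the U7 small nuclear ribonucleoprotein direct the cut that forms this end. Neurons do not divide, so in adult brain S phase is limited to a few progenitor and glial cells, while replication-independent variants such as H3.3 supply histones outside S phase.

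The stem-loop is shown first because it is the feature that sets these RNAs apart and was not part of the rule. It was found in the GENCODE transcript models of 42 of the 60 members. Where the model runs at least 60 bases past the reading frame, 41 of 44 members carried it; the other 3 were H2bc4, H2bc21 and H2bc23. A further 15 members without it have models that stop at or near the end of the reading frame. Among other rows with a transcript sequence, 12 of 15719 (0.0763%) held a match. The hairpin began 21 to 58 bases after the stop codon (median 31). The search fixed some stem and loop bases and limited the choice at the others, so pairing of the stem was largely a condition of it. A hairpin with a diverged stem would have been missed. All 42 hairpins had 6 perfectly paired stem positions, and 8 sequences occurred. They are written 5′ to 3′ with the 4 loop bases in capitals:
loop 1: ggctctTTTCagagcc
loop 2: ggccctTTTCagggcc
loop 3: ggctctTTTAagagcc
loop 4: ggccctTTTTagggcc
loop 5: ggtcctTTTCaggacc
loop 6: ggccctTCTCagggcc
loop 7: ggctctTCTTagagcc
loop 8: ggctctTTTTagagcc
Loop 1 was the most frequent, in 23 members of the H1, H2A, H2B and H3 classes. Loop 2 occurred in 7 H4 genes, among them H4c4, H4c17, H4c8 and H4c3. Loop 3 was shared by H2bc3, H2bc12, H3c3, H3c6 and H3c7. Loops 4 and 5 each occurred in 2 H4 genes, H4c9 with H4c14 and H4c2 with H4c11. Loops 6, 7 and 8 occurred once each, in H4c1, H3c8 and H2ac20. The 12 H4 members with a hairpin had the stem of loop 2 or that of loop 5, and all 30 members of the other classes had the stem of loop 1.

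H4 genes were the most abundant histone class in these brains. The 60 members together had a summed mean normalised count of 9627 in the authors' deposited table, 0.104% of the sum over all rows, and the 13 H4 rows held 54.2% of it. H2A rows held 17.4%, H2B rows 15.7%, H1 rows 6.62% and H3 rows 6.07%. Divided by gene length, the median level was 518 mean normalised counts per kb for H4, against 94.6 for H1, 73.4 for H3, 55.6 for H2A and 50.04 for H2B. By counts the class medians were 236 for H4, 73.4 for H1, 62.4 for H3, 52.7 for H2B and 26.1 for H2A. H2B was thus lowest per kb but not by counts, as the long models of H2bc4, H2bc6, H2bc21 and H2bc23 lower their values per kb. Levels within a class spread widely, by 201-fold between the highest and lowest H2A row, 53.2-fold for H2B (33.3-fold by counts, since the lowest row, H2bc23, is divided by a long model), 31.1-fold for H4, 8.92-fold for H1 and 7.04-fold for H3. The highest level per kb was that of H4c4 (3167), followed by H4c17 (2029), H4c8 (1809), H4c3 (1564), H2ac19 (1238) and H2aw (1081). H4c4 was the most abundant member and ranked 1678 of 15978 rows by mean normalised count. The lowest was H2ac12, with 6.15 per kb from a mean normalised count of 3.21. In the authors' deposited table, 22 members had a mean normalised count of at least 100 and 55 one of at least 10.

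**Figure D1:**
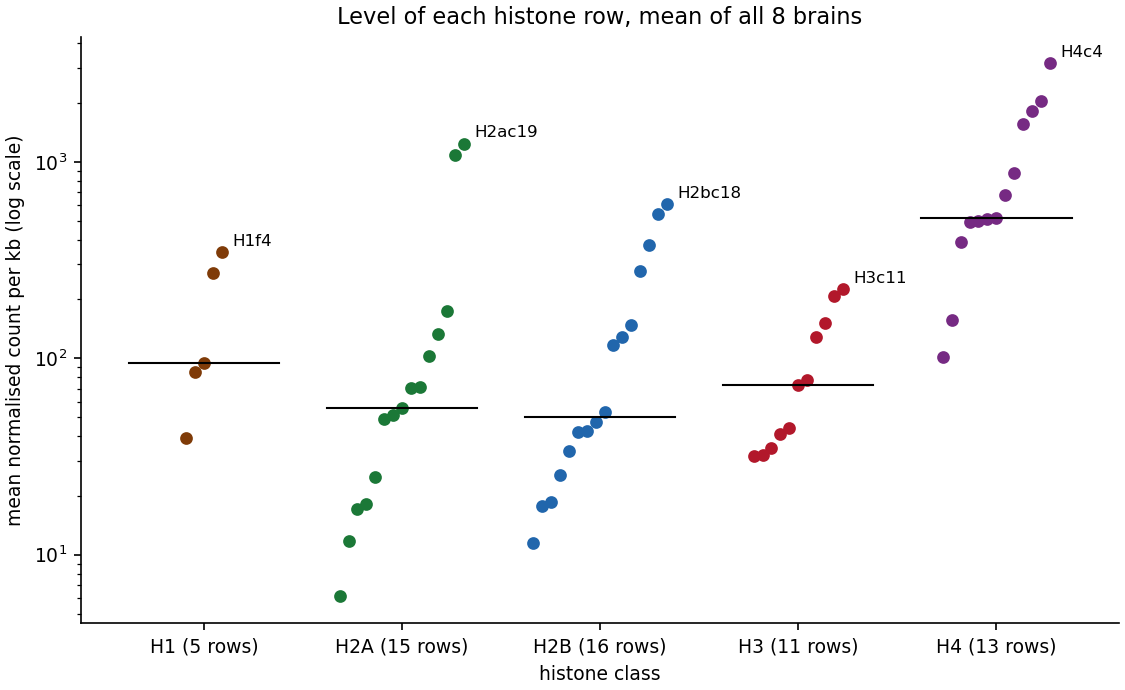
Level of each of the 60 histone rows, as mean normalised count per kb of gene length on a log axis, by class; each point is 1 row averaged over all 8 brains, the line is the class median, and the highest row of each class is named. The H4 median (518) stands above those of the other classes, and H2A rows span from 6.15 to 1238. Long models lower the values per kb of H2bc4, H2bc6, H2bc21 and H2bc23.

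No histone gene passed the DESeq2 test between C9-BAC and wild-type brain. In the authors' deposited table, 0 of 60 members had an adjusted p under 0.05, and every adjusted p was 0.9997; over all rows the share called was 0%. At an unadjusted DESeq2 p under 0.05 the count was again 0 of 60, where 1.50% of all tested rows passed (0.659% with a positive and 0.840% with a negative sign). The smallest p of a member was 0.134. Log2 fold changes of the members ran from -0.13 to 0.14 in the authors' deposited table, and 54 of 60 lay within 0.1 of 0, a share of 90.0% against 82.6% over all rows. These shares are not matched on level, as the median mean normalised count was 63.7 for members and 171 for all rows. Fold changes of rows with few counts may be pulled toward 0. The 95% Wald interval of every member covered 0. With 27 positive and 33 negative members, 45.0% were positive (95% Wilson interval 33.1 to 57.5, which counts rows as independent), and the median log2 fold change was -0.01. Over all rows 47.4% were positive and the median was -0.00439.

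**Figure D2:**
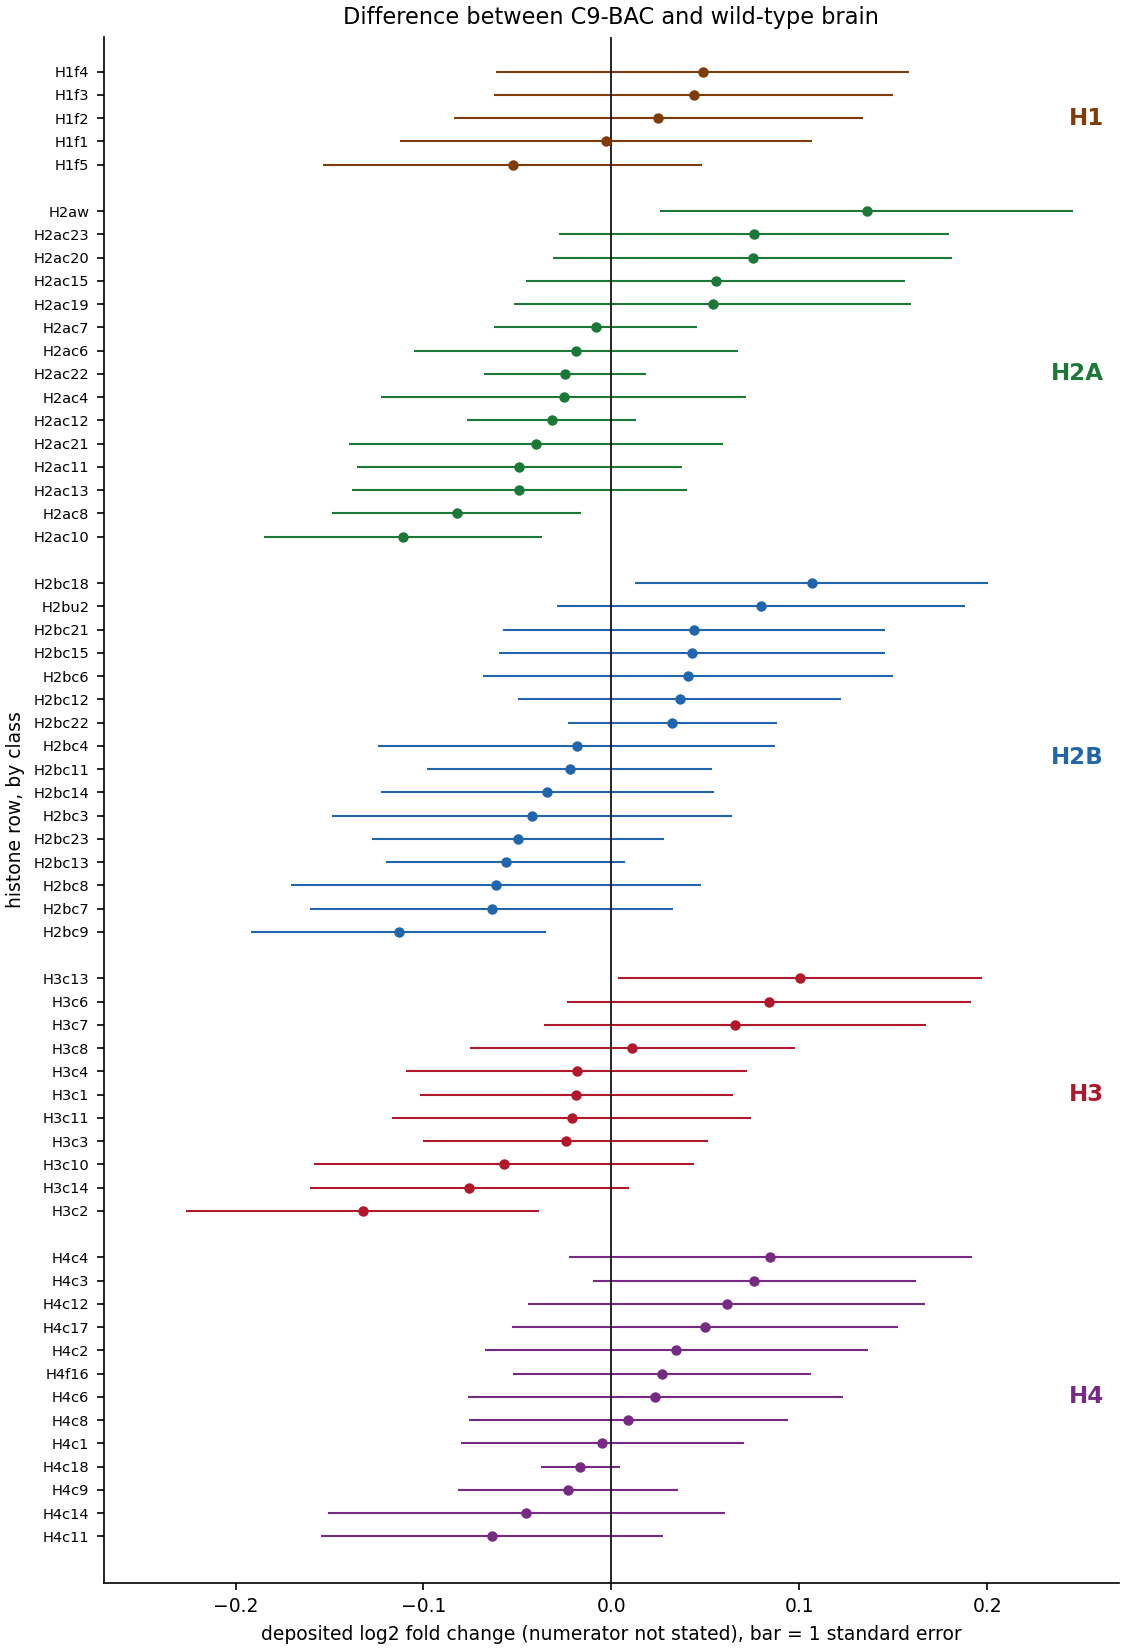
Deposited log2 fold change of each histone row with 1 standard error to either side, sorted within the 5 classes. Values run from -0.13 (H3c2) to 0.14 (H2aw), and no row stands clear of 0 by its 95% interval.

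The linker histones, which bind DNA between nucleosomes, had the fewest rows and the narrowest range of fold changes. A range tends to widen with more rows, so the classes cannot be ranked by it. Of the 5 H1 rows, 3 were positive and 2 negative, and the median of their log2 fold changes in the authors' deposited table was 0.02. H1f4 (H1.4), at chromosome 13, 23621777 to 23622558, was the most abundant, with a mean normalised count of 272, and showed a log2 fold change of 0.05 (standard error 0.11, DESeq2 p = 0.658) in the authors' deposited table; this was also the highest value of the class. H1f5 (H1.5) was the least abundant, at 31.0, and had the lowest value, -0.05 (standard error 0.10, DESeq2 p = 0.603), in the authors' deposited table. H1f2, known to make polyadenylated RNA as well, had, in the authors' deposited table, a mean normalised count of 198, with a log2 fold change near 0 (0.02). H1f1 lay closest to 0 of all members, at -0.00304.

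H2A pairs with H2B in the nucleosome, and its rows were mostly negative, 10 against 5, with a median of -0.02 in the authors' deposited table. H2aw (Hist3h2a), at chromosome 11, 58954685 to 58955192, had the highest log2 fold change of all 60 members, 0.14 with a standard error of 0.11 (DESeq2 p = 0.217), at a mean normalised count of 549 in the authors' deposited table. On the linear scale this is 1.10-fold, with a 95% interval on the log2 scale of -0.08 to 0.35. H2ac10 (Hist1h2af), at chromosome 13, 23533875 to 23534378, had the lowest value of the class and the smallest p of any member: -0.11 with a standard error of 0.07 (DESeq2 p = 0.134) in the authors' deposited table. Its mean normalised count was 8.59, so it rests on few reads. H2ac8 followed by p, at -0.08 with a standard error of 0.07 (DESeq2 p = 0.214) and a mean normalised count of 13.9 in the authors' deposited table. The most abundant H2A row was H2ac19 (738), whose name holds a second place, that of its copy H2ac18; its log2 fold change was 0.05 with a standard error of 0.11 (DESeq2 p = 0.610) in the authors' deposited table.

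H2B rows divided into 7 positive and 9 negative, with a median of -0.02 in the authors' deposited table. H2bc18 (Hist2h2bb), at chromosome 3, 96269700 to 96270192, had the highest value, 0.11 with a standard error of 0.09 (DESeq2 p = 0.256), at a mean normalised count of 300 (299.6) in the authors' deposited table. H2bc9 (Hist1h2bh), at chromosome 13, 23542923 to 23543444, had the lowest, -0.11 with a standard error of 0.08 (DESeq2 p = 0.149), at 13.4 counts in the authors' deposited table. H2bc4 was the most abundant H2B row, at 322, and lay near 0 (-0.02, standard error 0.11, DESeq2 p = 0.861) in the authors' deposited table. H2bu2, the neighbour of H2aw on chromosome 11, had 0.08 (standard error 0.11), so both rows of that locus were positive in the authors' deposited table. Long spliced models are annotated for H2bc4, H2bc6, H2bc22 and H2bc23, whose values of -0.02, 0.04, 0.03 and -0.05 in the authors' deposited table fell on both sides of 0.

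H3 carries the tail residues best known for regulatory modification, and its 11 rows comprised 4 positive and 7 negative, with a median of -0.02 in the authors' deposited table. H3c2 (Hist1h3b), at chromosome 13, 23752345 to 23752840, had the lowest value of all 60 members, -0.13 with a standard error of 0.09 (DESeq2 p = 0.159), at a mean normalised count of 20.5 in the authors' deposited table. H3c13 (Hist2h3b), on chromosome 3 at 96268654 to 96269155, had the highest of the class, 0.10 with a standard error of 0.10 (DESeq2 p = 0.301), at 76.2 counts in the authors' deposited table. H3c11 was the most abundant, at 108, and had -0.02 with a standard error of 0.10 (DESeq2 p = 0.825) in the authors' deposited table. The coding parts of these genes are close to identical, and reads from one can be counted for another.

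H4, the most conserved histone, had 8 positive and 5 negative rows and a median of 0.02 in the authors' deposited table. H4c4 (Hist1h4d), at chromosome 13, 23581568 to 23581969, was the most abundant member of the family, with a mean normalised count of 1273, and had the highest value and the second smallest p of its class, 0.08 with a standard error of 0.11 (DESeq2 p = 0.430) in the authors' deposited table. H4c3 had the smallest p of the class, at 0.08 with a standard error of 0.09 (DESeq2 p = 0.375) and 587 counts in the authors' deposited table. H4c11 had the lowest value, -0.06 with a standard error of 0.09 (DESeq2 p = 0.485), at 66.1 counts in the authors' deposited table. Of the 4 rows with the highest level per kb in the whole family, all of them H4 genes, every value was positive, from 0.01 for H4c8 to 0.08 for H4c4, and each was smaller than its standard error in the authors' deposited table.

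Histone rows with few counts were mostly negative, and the most abundant ones mostly positive. Of the 25 members with a mean normalised count under 50, 4 were positive and 21 negative in the authors' deposited table (16% positive, against 44.5% of all rows in that range). Of the 35 members at 50 or more, 23 were positive and 12 negative (65.7%, against 48.6% of all rows). Of the 14 members at 200 or more, 12 were positive (85.7%, against 49.2%), the exceptions being H2bc4 and H4c1. The share did not climb steadily in between, with 8 of 13 positive from 50 to 100 counts (61.5%) and 3 of 8 from 100 to 200 (37.5%). These limits were chosen after the values were seen, and no member passed the test. The split was present within H2A, with 1 of 10 positive under 50 counts and 4 of 5 above, and within H2B, with 2 of 8 and 5 of 8. For H3 the shares were 1 of 5 and 3 of 6. H1 and H4 each had only 1 row under 50 counts, which was negative, with 3 of 4 and 8 of 12 positive above. Class and level are therefore partly tied. Across the 60 members Spearman's rho between mean normalised count and log2 fold change was 0.57 (Pearson's r 0.46), and across all 15978 rows rho was 0.04. All points come from the same 8 libraries and near-identical genes share reads, so they are not independent. With the trend on GC content and length taken off, 4 of 25 were positive under 50 counts (16%, against 47.1% of all rows). At or above 50 counts, 22 of 35 were positive with the trend taken off (62.9%, against 50.7% of all rows). Restricted to members that share less than 50% of their 50-base windows with another gene, the counts were 2 of 10 and 13 of 22.

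**Figure D3:**
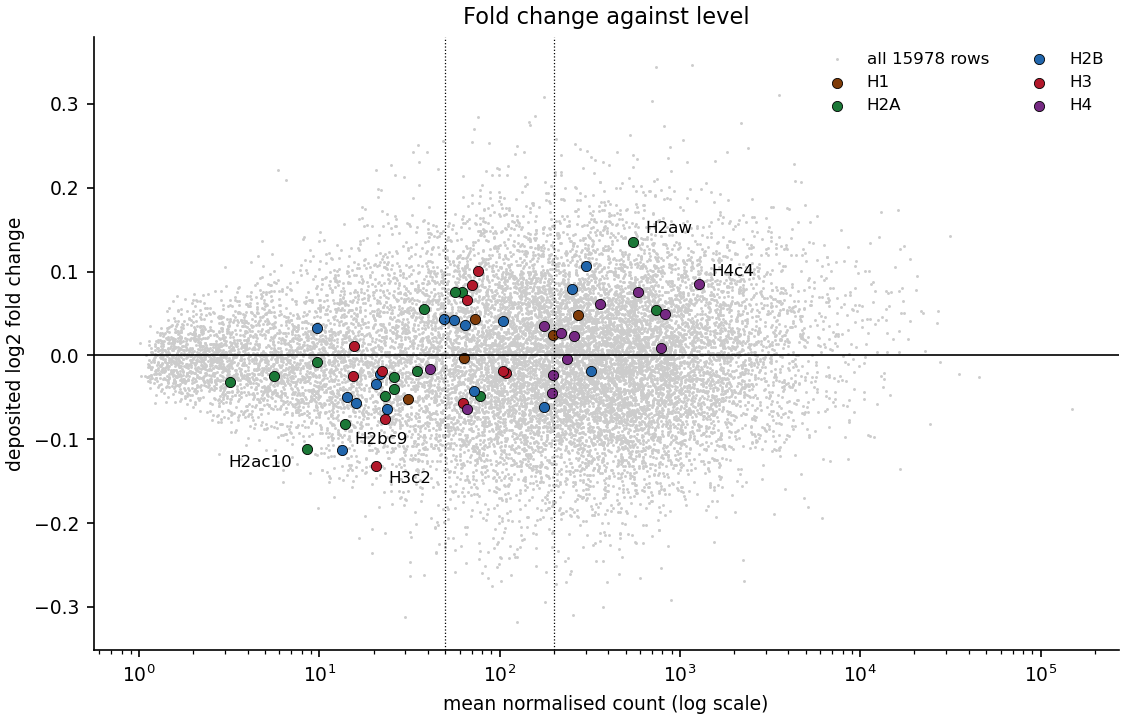
Deposited log2 fold change against mean normalised count (log axis) for all 15978 rows in grey and the 60 histone rows in the colour of their class; dotted lines mark counts of 50 and 200. Of the 25 histone rows left of the first line 21 lie below 0, and of the 14 right of the second line 12 lie above 0.

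The members were rich in GC, with a median transcript GC content of 57.5% against 50.5% for all rows. Spearman's rho between GC content and log2 fold change was -0.11 over the 60 members, while it was 0.38 over the 15779 rows with a transcript sequence. These are correlations across genes, which are not replicates.

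Of the H2A and H2B genes, 10 pairs are divergent neighbours, transcribed away from each other from starts 164 to 249 bases apart, so that 1 stretch of promoter lies between both. The stretch between H2ac8 and H2bc8 is printed because this pair combines a large difference in level with every promoter motif searched. The motifs, searched on both strands, were the TATA box (TATAAA), the CCAAT box (CCAAT) and the octamer (ATTTGCAT), the site of the transcription factor OCT1 known from H2B promoters. The sequence covers the 179 bases between both starts, chr13:23571221-23571399 (GRCm38.p6, plus strand, from RefSeq), written 5′ to 3′ with matches to a motif in capitals:
H2ac8-H2bc8 promoter: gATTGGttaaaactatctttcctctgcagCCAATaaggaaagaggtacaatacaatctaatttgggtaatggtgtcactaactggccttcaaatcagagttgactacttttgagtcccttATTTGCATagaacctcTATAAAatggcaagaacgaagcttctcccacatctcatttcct
The TATA box begins 43 bases and the octamer 59 bases before the annotated H2bc8 start, and the CCAAT box occurs on the printed strand 150 bases before it and on the other strand 178 bases before it. H2ac8 starts just before the printed stretch, at 23571220, and runs leftward. Among the 56 promoter windows of 300 bases that RefSeq gives for 55 members, the octamer occurred in 6 of 15 H2A and 6 of 15 H2B windows and in no H1, H3 or H4 window, against 1.74% of all 32851 windows. Windows of divergent neighbours overlap, so a match can be counted for both genes: these 12 windows held 10 distinct octamers, and 2 pairs, H2ac8 with H2bc8 among them, shared theirs. The CCAAT box occurred in every H1, H2A, H2B and H3 window but in 3 of 12 H4 windows (37.4% of all windows), and the TATA box in 57.1% of histone windows (13.6% of all).

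Members of a divergent pair differed in level by up to 20.9-fold. The H2B gene was higher per kb in 6 pairs and the H2A gene in 4. H2bc12 stood at 128 per kb and its partner H2ac12 at 6.15, a ratio of 20.9 that rests on a mean normalised count of 3.21 for H2ac12, and H2bc8 at 378 against 25.0 for H2ac8, a ratio of 15.1. In the other direction H2ac13 (174) exceeded H2bc13 (33.8) 5.16-fold. H2ac23 (103) exceeded H2bc23 (11.4) 9.02-fold per kb but 3.97-fold by counts (56.9 and 14.3), since the H2bc23 model has 1254 bases and H2ac23 552. H2ac20 (133) exceeded H2bc21 (18.5) 7.19-fold per kb but only 1.26-fold by counts (62.2 and 49.2), with lengths of 468 and 2667 bases. H2ac11 and H2bc11 were nearly level, at 49.0 and 47.1. The H2bc4 model, of 1156 bases, lowers its value per kb likewise: H2bc4 exceeded H2ac6 3.89-fold per kb and 9.24-fold by counts. Sharing of 50-base windows with other genes was high for H2ac12 (90.7%) and H2bc12 (74.2%), H2ac13 (90.1%) and H2bc13 (82.8%), and H2ac23 (93.5%) and H2bc23 (100%). It was lower for H2ac8 (43.2%) and H2bc8 (49.7%). As the handling of reads that fit several copies is not stated, ratios of pairs with high sharing are uncertain. The sign of the deposited log2 fold change was the same in 7 of 10 pairs, positive in 2 (H2ac15 with H2bc15 and H2ac20 with H2bc21) and negative in 5. Signs were opposite for H2ac12 (-0.03) and H2bc12 (0.04), H2ac22 (-0.02) and H2bc22 (0.03), and H2ac23 (0.08) and H2bc23 (-0.05) in the authors' deposited table, each within 1 standard error of 0.

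**Figure D4:**
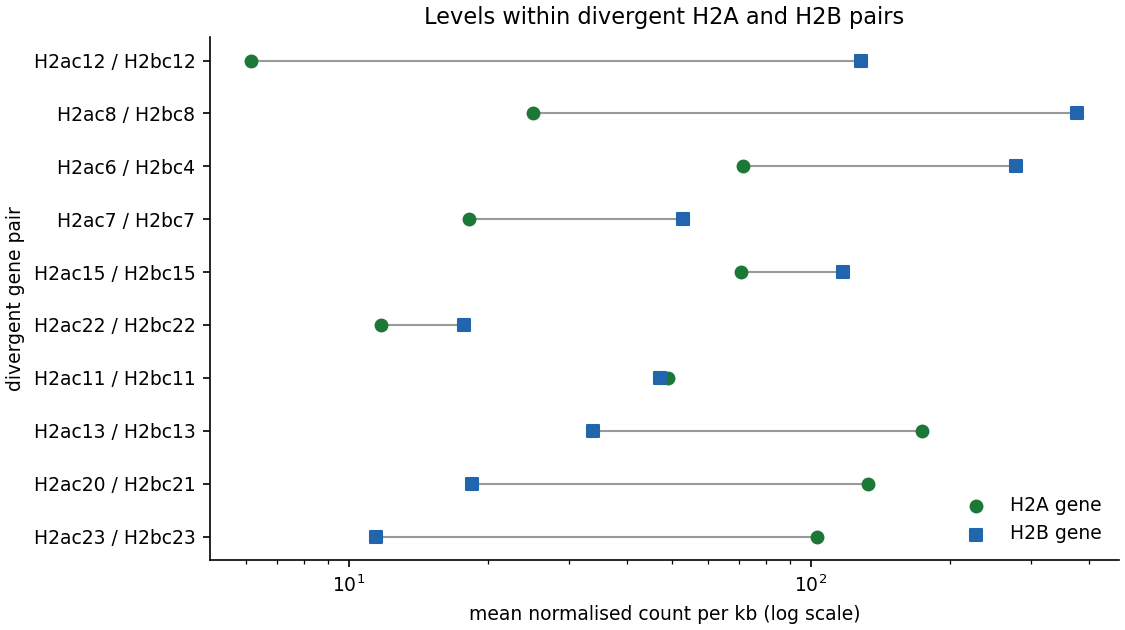
Level per kb (log axis, mean of all 8 brains) of the H2A gene (circle) and the H2B gene (square) in each of the 10 divergent pairs, ordered by their ratio. Ratios run from 20.9-fold higher H2B (H2ac12 with H2bc12) to 9.02-fold higher H2A (H2ac23 with H2bc23, 3.97-fold by counts). The long models of H2bc4, H2bc21 and H2bc23 lower their values per kb. Genes of both these pairs share most of their windows with other genes, so their ratios are uncertain.

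Standard errors of histone rows were low for their level. Compared with rows whose mean normalised count was within 25% in ratio, 46 of 60 members had a standard error below the middle of the range, the median percentile was 14.9, and 14 members lay under the 5th percentile against 1 over the 95th. H4c18 (Hist1h4n), at chromosome 13, 21831792 to 21832197, had a deposited standard error of 0.021, where the median of 810 rows of like level was 0.106 and none was lower. H4c9 came next, with a deposited 0.0587 and 6 of 1510 rows lower, then H4c1 with 0.0754 and 15 of 1512, and H4f16 with 0.0794 and 17 of 1518. H2aw, at 0.110, was at the top of its range. If a prior was used, a low standard error need not mean that a row was measured well, since rows with few or variable counts are pulled furthest toward 0.

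**Figure D5:**
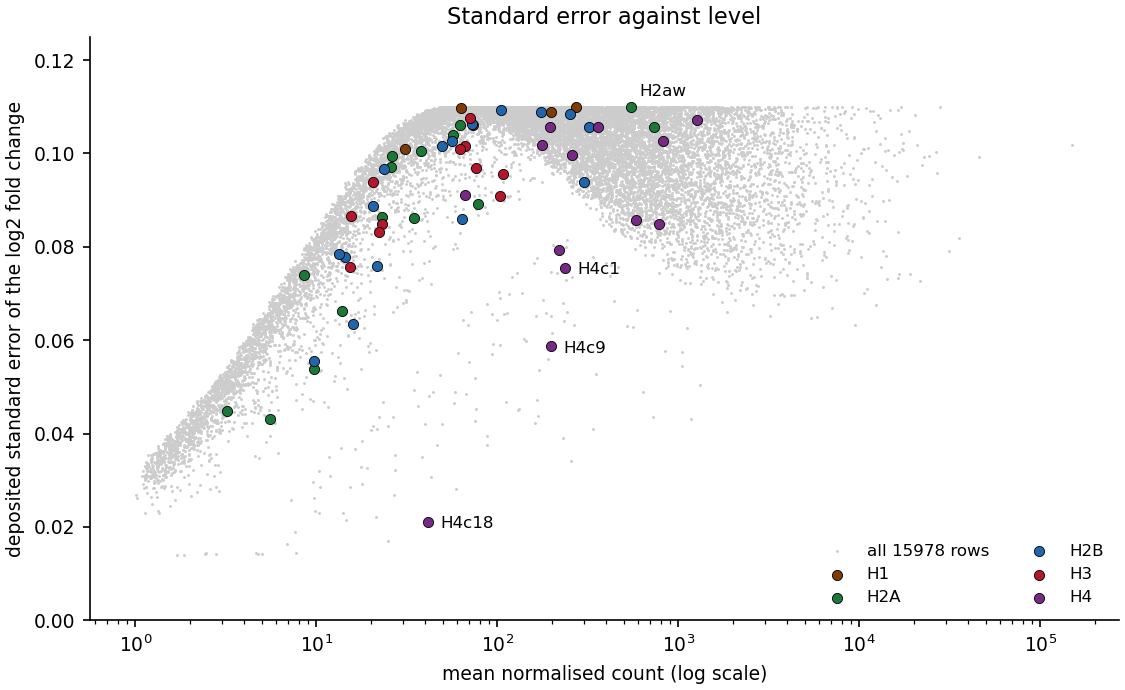
Deposited standard error against mean normalised count (log axis) for all 15978 rows in grey and the 60 histone rows in the colour of their class. H4c18 (0.021), H4c9 (0.0587) and H4c1 (0.0754) lie below most rows of like level, and H2aw (0.110) lies at the upper edge.

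Near-identical copies limit how far a value belongs to a single gene. A median of 49.4% of a member's 50-base transcript windows also occurred in the transcript of another gene, and 28 of 60 members shared at least 50%. Sharing was least for H1 (median 2.25%) and most for H2A (67.1%) and H3 (60.4%). H2ac19, H2bc23 and H3c14, whose row names hold a second place, shared all of their windows, while H1f1, H1f5 and H2bc21 shared none. A copy at such a place was counted as another gene, so full sharing can reflect a copy that the row itself covers. Among abundant H4 genes, H4c4 shared 10.2% and H4c3 19.6%, but H4c17 shared 89.8%. The read length and the handling of reads that fit several copies are not stated in the labels, so levels of H4c17, H2ac19 and others with high sharing are uncertain. Over the 60 members sharing went weakly with the percentile of the standard error, with Spearman's rho at -0.21.

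By locus, the first stretch of chromosome 13, from H2bc13 to H2bc11 (21715711 to 22043658), held 7 positive and 14 negative members in the authors' deposited table. The second, from H4c8 to H1f1 (23531044 to 23764412), held 12 positive and 16 negative. The 8 rows on chromosome 3 (96219885 to 96270192) comprised 5 positive and 3 negative, and H4f16 on chromosome 6 was positive (0.03).

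Genes related to these histones were read from lists of broad scope, and 0 members of any list had a DESeq2 adjusted p under 0.05 in the authors' deposited table. Of 28 genes listed for histone RNA processing and transcription, 10 were positive and 18 negative, with a median log2 fold change of -0.02 and 0 at an unadjusted p under 0.05. Not every gene on this list is specific to histone RNA, and some, such as Wdr33, Fip1l1, Zc3h12a and Arid5a, may not act on it. Pou2f1, which encodes OCT1, had -0.14 with a standard error of 0.09 (DESeq2 p = 0.120), and Cpsf1, a subunit of the cleavage factor, 0.11 with a standard error of 0.10 (DESeq2 p = 0.275) in the authors' deposited table. The scaffold gene Sympk was the most abundant, at 1540 counts with 0.08 (standard error 0.11) in the authors' deposited table. Of 29 histone chaperone genes, 11 were positive and 18 negative, with 0 at an unadjusted p under 0.05. Ubn1, of the H3.3 chaperone HIRA complex, had -0.16 and Chaf1b, of the replication chaperone CAF-1, 0.07, while Atrx was the most abundant at 3644 counts, with -0.06, in the authors' deposited table.

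Replication-independent histone genes were on both sides of 0 too. Of 11 found, 5 were positive and 6 negative in the authors' deposited table, with a median log2 fold change of -0.02 and 0 at an unadjusted p under 0.05. Among the positive ones was H2ax (0.05), whose transcript also held a match to the hairpin, so the list is not free of hairpin-bearing genes. H1f10 had 0.16 and Macroh2a2 0.14 (DESeq2 p = 0.137 and 0.183), and the H3.3 gene H3f3b, the most abundant, had -0.07 at 954 counts in the authors' deposited table.

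Genes of DNA replication and division had few counts and mostly negative signs. All 35 listed were in the authors' deposited table, with a median mean normalised count of 17.2, 7 positive and 28 negative fold changes (20% positive, against 47.4% of all rows), a median of -0.03, and 0 at an unadjusted p under 0.05. Of the 22 genes under 50 counts 3 were positive, and of the 13 others 4. Top2a, the topoisomerase of dividing cells, had -0.16 with a standard error of 0.10 (DESeq2 p = 0.0977), Uhrf1 -0.14 with a standard error of 0.09 (DESeq2 p = 0.106) and Pcna, the most abundant at 309 counts, -0.01, in the authors' deposited table. Of 16 markers of immature neurons and progenitors, 6 were positive and 10 negative, and Sox11 was the 1 gene with an unadjusted DESeq2 p under 0.05 (-0.24, standard error 0.11, p = 0.0240) in the authors' deposited table, where 1.50% of all tested rows passed (0.840% with a negative sign); Igfbpl1 had -0.14 and the most abundant, Tubb3, 0.09. The part of these cells in the histone values was not tested.

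Other RNAs without a poly(A) tail were listed as a comparison. Of 5 found among 22, 1 was positive and 4 negative. The RNase P RNA gene Rpph1 had a mean normalised count of 16668 with a log2 fold change of -0.14 (standard error 0.07, DESeq2 p = 0.0687), and Vaultrc5 one of -0.08 at 4.12 counts, in the authors' deposited table. Of 10 erythroid genes listed, 5 were found, all positive, with a median of 0.07, and 3 had a p, none under 0.05. Alas2 and Hbb-bt had 0.07 and 0.06 (DESeq2 p = 0.120 and 0.147) in the authors' deposited table. The most abundant, Hba-a2 (0.07 at 1183 counts) and Hbb-bs (0.07 at 721 counts), had no p there. Of the 10 neuronal and glial markers, 4 were positive and 6 negative, with Gad1 at -0.19, Rbfox3 at 0.10 and Slc1a2 at -0.03 in the authors' deposited table.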

How the data were processed

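Total RNA of 5 C9-BAC and 3 wild-type brains was sequenced, and the authors deposited a single DESeq2 result table for the comparison. Per the submitters' processing notes, the authors used build mm10 with Trimmomatic and Bowtie2, then DESeq and DESeq2; the read counter, annotation, filters and all versions are not given here. Per the file headers, the deposited mean normalised count is a signal: counts divided by size factors, averaged over samples. The deposited fold change is a log2 value, as is its standard error, the Wald statistic is a score deposited by the authors, and the p-value and adjusted p-value were deposited with it. The statistic differed from fold change over standard error by at most 8.3e-07 on any row, and Benjamini-Hochberg adjustment of the p-values gave the deposited adjusted values within 5.3e-12; 34 rows have no p. All adjusted p-values named with DESeq2 are the authors'.

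Row names were matched to symbols through RefSeq accessions of GRCm38.p6, the assembly also called mm10, for 15857 rows. GC content came from GENCODE vM21 transcripts for 15779 rows (98.8%). Levels per kb use the RefSeq gene span, or the GENCODE transcript length where the span exceeds 3000 bases (H2bc4, H2bc6, H2bc22, H2bc23). The hairpin was searched as the 16-base histone stem-loop consensus, with some stem and loop bases fixed and the choice at the others limited. Members and lists were chosen with earlier results of these data known, so counts and medians are descriptions, set beside those of all rows, and no list was tested. By the naming rule, each class gives its most abundant row, the 2 of smallest p and the highest and lowest fold change; other lists give the most abundant and the 2 of smallest p. Each sample is taken as 1 mouse; if samples share a mouse, the p-values cover a spread that may be technical. Library totals were not analysed here; the mean normalised counts of all rows add up to 9226666. Alternatives were 2 count filters, 2 narrower member sets, an empirical null, a GC and length trend, centring, a fold-change minimum and the Wald statistic. Python 3.11.15, pandas 2.3.3, numpy 2.4.6, scipy 1.17.1 and matplotlib 3.10.9 were used, and the adjustments were tested on simulated data.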

Additional observations from a re-analysis of the deposited data

How the results depend on the processing

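Of 30 alternative values, 26 kept their side of the threshold or stayed within the interval of the value as reported. The intervals ran from 33.1 to 57.5% for the positive share and from -0.0244 to 0.0324 for the median log2 fold change. Both count rows as independent and do not measure the spread between mice, so staying within them is a description only. The median Wald statistic, -0.17 on its own scale, could be compared by sign only, and was negative like the median log2 fold change. The count of members with an adjusted p under 0.05 was 0 under every alternative run: both count filters, both narrower member sets, the empirical null and the GC and length trend. Over all rows, 0 of 13704 had an adjusted p under 0.05 with the empirical null and 5 of 15746 with the GC and length trend. At an unadjusted p under 0.05 the count of members was also 0 except with the GC and length trend taken off the statistic. There 4 members passed (H2ac10, H3c2, H2aw and H2ac8), 6.67% of the members beside 6.21% of all rows under that setting. With the empirical null the count was 0 of 55 members, beside 4.95% of 13704 rows. The count filters and narrower member sets only drop members, and the smallest DESeq2 p of all 60 was 0.134. Their counts of 0, which are among the 26, were therefore fixed in advance. With only rows of a mean normalised count of at least 50, the share of positive members was 65.7% and the median log2 fold change 0.0364, against 45.0% and -0.01 as reported; this setting leaves 35 of 60 members. Both alternatives added after the data were seen, for the split at 50 counts, kept its direction. The median was 0.00213 with the 42 members in which the hairpin was found. No paired analysis was possible because the genotypes share no replicate numbers, and fits without 1 mouse were not run because the file used here has 1 value per gene. A mean normalised count under 10, as in 5 members, limits what those rows can show.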

Other observations

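The hairpin search also matched the transcripts of 12 rows outside the histone clusters. Among them was H2ax, a histone variant gene of the DNA damage response outside the clusters and known to make both hairpin-ended and polyadenylated RNA; it was named after its values were seen. In the authors' deposited table H2ax averaged 124.8 normalised counts, and its log2 fold change was 0.05 (standard error 0.11, DESeq2 p = 0.681, adjusted p = 0.9997). Of the 12 rows, 3 were positive and 9 negative in the authors' deposited table, and none had an unadjusted DESeq2 p or an adjusted p under 0.05. A match shows only that these letters occur in the transcript model.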
